A study of Mus musculus with 3 samples.

Results

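The CpG-rich regions that lie inside 6 imprinted host genes of the mouse, Igf2r, Gnas, Trappc9, Inpp5f, H13 and Grb10, were examined for DNA methylation in embryonic stem (ES) cells. Each gene body of the GENCODE vM1 annotation (genome build mm9) was taken with 5 kb on either side and divided into bins of 1000 bp, and every bin with at least 10 CpGs listed in any library was kept. This gave 442 bins of 594618 such bins in the genome, with 51 in Igf2r, 44 in Gnas, 242 in Trappc9, 32 in Inpp5f, 40 in H13 and 33 in Grb10. A bin within 500 bp of the annotated 5′ end of its gene was counted as the gene's own promoter (10 bins), a bin with its midpoint inside the gene as intragenic (406 bins), and the other 26 bins flanked the gene. On mm9, Igf2r lies at chromosome 17, 12875272 to 12962530 (minus strand), Gnas at chromosome 2, 174109821 to 174172245 (plus), Trappc9 at chromosome 15, 72420051 to 72891634 (minus), Inpp5f at chromosome 7, 135754842 to 135839939 (plus), H13 at chromosome 2, 152495197 to 152534406 (plus), and Grb10 at chromosome 11, 11830511 to 11938686 (minus).

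Imprinted genes are expressed from the allele of 1 parent only, and the choice is carried by differentially methylated regions (DMRs), CpG-rich stretches that are methylated on 1 parental allele and unmethylated on the other. Several of these DMRs are not at the promoter of the gene they are named for. They sit inside a host gene, at the start of a nested transcript. Igf2r, the receptor that clears insulin-like growth factor 2, holds the start of the antisense noncoding RNA Airn. Gnas, which encodes a stimulatory G protein subunit, holds the starts of the antisense RNA Nespas, of the extra-large Gnas transcript (Gnasxl) and of the transcript from exon 1A. Trappc9, a subunit of a vesicle-tethering complex, holds the noncoding RNA Peg13. The inositol phosphatase gene Inpp5f holds a shorter transcript, and H13, which encodes a signal peptide peptidase, holds the retrogene Mcts2. Grb10 encodes an adaptor that restrains growth factor signalling and uses separate promoters on the 2 parental alleles. CTCF is a zinc finger protein that binds DNA and is best known in imprinting for binding the unmethylated allele of some DMRs. A bulk library in which every cell keeps both alleles reads such a region at an intermediate level.

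There were 3 libraries. In CTCF ChIP-BisSeq, DNA bound by CTCF was immunoprecipitated and then bisulfite sequenced, in 2 replicates of wild type ES cells of mixed 129-C57Bl/6 background, each library made from DNA pooled over 5 immunoprecipitations with carrier DNA from Drosophila. In whole-genome bisulfite sequencing (WG-BisSeq), all DNA was sequenced, in a single library of REST knockout ES cells of Black Agouti 129 background. Both cell types were grown on feeder cells or gelatine. Genotype, strain and assay changed together between the ChIP-BisSeq and WG-BisSeq libraries and cannot be told apart. The WG-BisSeq library had no replicate, so tests of it compare libraries and not conditions.

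The WG-BisSeq library held 273375318 observations of single CpGs on sequenced reads, the ChIP-BisSeq replicates 13411280 and 25262179, and these covered 78.0%, 12.4% and 33.1% of the 21342492 CpGs of the main chromosomes. All 442 host gene bins had at least 10 observations in WG-BisSeq, while 100 had them in replicate 1 and 251 in replicate 2. In the REST knockout library, annotated exons 2 and 3 of Rest held 3 observations over 35 CpGs and 12 over 41, against 1160 over 39 CpGs in exon 1. Exons 2 and 3 held 119 and 173 observations in ChIP-BisSeq replicate 2, but 0 and 28 in the sparser replicate 1, which is also wild type. The promoters of the ES cell genes Pou5f1, Nanog and Zfp42 were methylated at 4.04%, 16.7% and 10.7% in the REST knockout library. Across 87 host gene bins covered in both ChIP-BisSeq replicates, methylation correlated between them at Pearson's r = 0.860, as a description over bins that share libraries, and 72.4% of the bins differed by less than 20 percentage points. Shares are methylated observations of all observations, with exact 95% binomial intervals where given. Adjacent CpGs lie on the same reads and PCR copies may remain, so the intervals and Fisher's exact tests cover counting error only.

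The stretch of 160 bp richest in CpGs is shown for each gene, and windows that overlapped an annotated untranslated region were left out of the search. Each was taken from the intragenic bin of at least 40 CpGs that was intermediate in WG-BisSeq and best covered in ChIP-BisSeq. For H13, where no such bin was intermediate, the bin at the Mcts2 start is used. They are the reference sequence of the forward strand of mm9, with CpGs in capitals, and none overlaps an annotated exon.
Igf2r, chr17:12935186-12935345 (+): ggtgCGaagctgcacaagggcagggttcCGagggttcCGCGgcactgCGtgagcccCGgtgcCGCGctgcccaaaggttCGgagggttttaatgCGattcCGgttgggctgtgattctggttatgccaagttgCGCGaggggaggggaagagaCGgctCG
Gnas, chr2:174123001-174123160 (+): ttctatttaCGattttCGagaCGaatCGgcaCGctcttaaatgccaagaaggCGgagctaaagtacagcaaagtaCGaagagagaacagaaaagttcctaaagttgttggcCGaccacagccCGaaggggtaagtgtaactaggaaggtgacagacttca
Trappc9, chr15:72640394-72640553 (+): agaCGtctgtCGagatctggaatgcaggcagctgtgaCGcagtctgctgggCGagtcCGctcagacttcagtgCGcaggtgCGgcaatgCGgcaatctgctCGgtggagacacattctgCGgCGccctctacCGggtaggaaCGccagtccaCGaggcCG
Inpp5f, chr7:135831839-135831998 (+): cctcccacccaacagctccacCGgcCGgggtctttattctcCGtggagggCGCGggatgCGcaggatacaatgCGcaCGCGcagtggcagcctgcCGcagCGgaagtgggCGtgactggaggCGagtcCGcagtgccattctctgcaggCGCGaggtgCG
H13, chr2:152512604-152512763 (+): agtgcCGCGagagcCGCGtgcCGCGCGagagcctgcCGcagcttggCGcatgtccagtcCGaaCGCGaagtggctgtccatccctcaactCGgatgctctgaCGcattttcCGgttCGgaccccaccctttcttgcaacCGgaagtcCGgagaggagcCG
Grb10, chr11:11925545-11925704 (+): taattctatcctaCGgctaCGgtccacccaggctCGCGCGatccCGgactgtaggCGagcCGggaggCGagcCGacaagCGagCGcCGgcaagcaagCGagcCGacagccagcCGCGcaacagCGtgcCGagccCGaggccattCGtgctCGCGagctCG

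These stretches are all dense in CpGs but were read very differently in the 3 libraries. The Igf2r stretch, just downstream of the Airn start, held 15 CpGs and was methylated at 17.4% of 1092 observations in WG-BisSeq, with single CpGs between 11.1% and 23.7%. ChIP-BisSeq gave it only 6 observations in each replicate, none of them methylated, which allows a share of up to 50% (3 counts of the total). The Trappc9 stretch, in an intron, also held 15 CpGs, and its share was 67.7% of 412 observations in WG-BisSeq, 0% of 271 in replicate 1 (which allows up to 1.11%) and 11.5% of 373 in replicate 2. Its single CpGs lay between 46.7% and 86.2% in WG-BisSeq and at 22.2% or below in both ChIP-BisSeq replicates, so the ranges of the 2 assays over CpGs covered at least 10 times did not overlap. The Grb10 stretch, downstream of the Grb10-001 start, held 24 CpGs and gave 37.7% of 546 observations, 14.8% of 155 and 12.3% of 114. The Inpp5f stretch, in the CpG island of the shorter transcript, gave 19.5% of 384 observations, 0% of 38 (allowing up to 7.89%) and 20.3% of 79. The H13 stretch, upstream of the Mcts2 start, gave 10.2% of 863 observations, 24.4% of 45 and 41.7% of 12. The Gnas stretch, upstream of the Gnasxl start, held the fewest CpGs, 9, in a search that left untranslated regions out. It gave 17.1% of 140 observations, 25.0% of 52 and 6.93% of 101.

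The first comparison set each intragenic bin against its own gene's promoter in REST knockout cells. In Trappc9, Igf2r and Inpp5f nearly all tested bins of the gene body were more methylated than the promoter, in Gnas and H13 a large part of them were not, and in Grb10 the answer turned on which start was taken as the promoter. The tested bins were those with at least 10 CpGs, 236 in the 471.6 kb of Trappc9, 47 in the 87.3 kb of Igf2r and 25 in the 85.1 kb of Inpp5f, and the rest of each gene body was not compared. A bin was called when a two-sided Fisher's exact test, adjusted by Benjamini-Hochberg over all 304485 bins tested in protein-coding genes, fell under 0.05 and the shares differed by at least 20 percentage points. Of 406 intragenic bins of the 6 genes, 358 were higher than the promoter (88.2%, against 83.1% of all bins tested) and 3 were lower, all in Grb10 (against 1.93% of all bins). The share of bins called higher was thus close to that of the genome.

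The promoter of Trappc9 was methylated at 4.37% (95% interval 3.63 to 5.21), and 235 of 236 intragenic bins were higher, with a median of 76.8%. The Igf2r promoter stood at 5.77% (5.06 to 6.54), and 45 of 47 bins were higher, with a median of 78.7%. The 2 exceptions were the bins at and next to the Airn start. In Inpp5f, the promoter stood at 14.5% (13.4 to 15.8) and 23 of 25 bins were higher, with a median of 71.1%, and the 2 exceptions were again the bins of the nested start. In H13, with a promoter at 5.07% (4.28 to 5.95), 25 of 34 bins were higher, with a median of 45.2%. In Gnas, whose annotated 5′ end is the start of the Nesp transcript, the promoter stood at 9.53% (8.53 to 10.6), and 18 of 36 bins were higher, with a median of 30.1%. Grb10 was the gene with the highest promoter share, 45.97% (37.0 to 55.1) on only 124 observations, and 12 of its 28 bins were higher and 3 lower. Most Grb10 transcripts that reach the 5′ region start 1.28 kb further in, at position 11937404 of chromosome 11. With the promoter at that start, the one of the longest coding sequence, 26 of 27 Grb10 bins were higher and 0 lower, and the internal CpG island, 16.7 percentage points below the annotated promoter in its first bin, stood 24.2 points above. The bin at that start, the richest in CpGs of all 442 with 137, was methylated at 3.94% of 3147 observations in WG-BisSeq, 4.11% of 219 in replicate 1 and 1.39% of 144 in replicate 2.

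**Figure D1:**
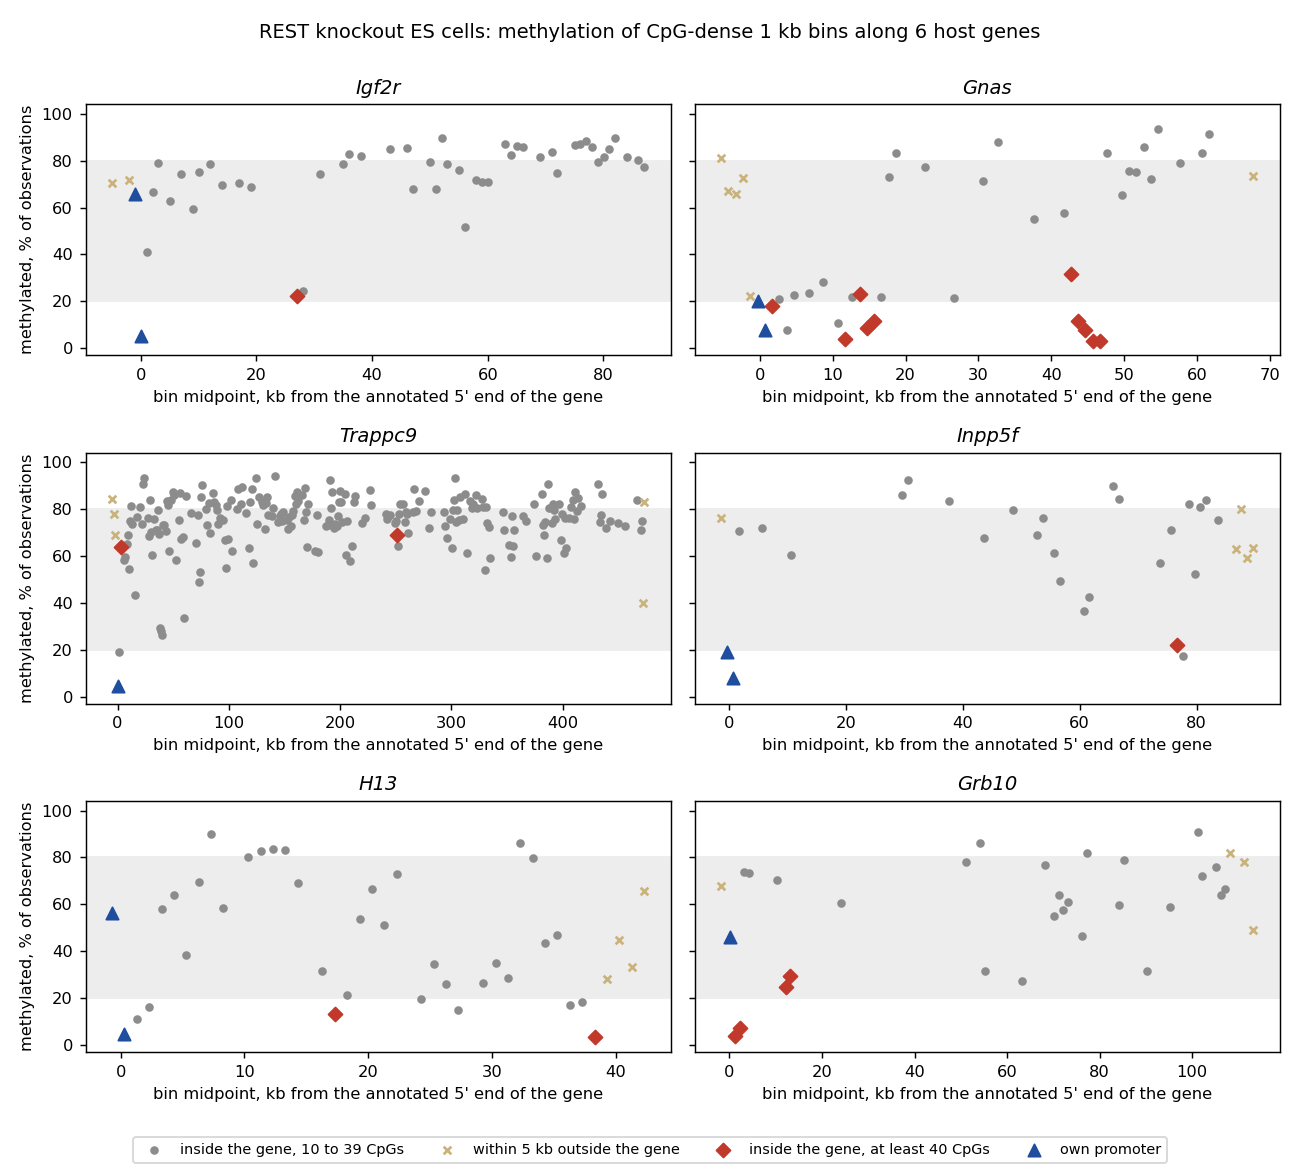
Share of methylated observations in REST knockout WG-BisSeq for each CpG-dense 1 kb bin (vertical axis, percent) by distance of the bin midpoint from the annotated 5′ end of its host gene (horizontal axis, kb), with triangles for promoter bins, diamonds for intragenic bins of at least 40 CpGs, circles for other intragenic bins, crosses for flanking bins and shading from 20% to 80%. The diamonds in Igf2r and Inpp5f sit near 22% in genes whose tested intragenic bins had medians of 78.7% and 71.1%, while those in Trappc9 sit at 69.1% and 63.8%.

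The least methylated intragenic bins were those richest in CpGs. Of 340 intragenic bins with 10 to 19 CpGs, the median share was 75.6%, and of 46 bins with 20 to 39 CpGs it was 74.3%. The 20 bins with at least 40 CpGs had a median of 12.5%, with 12 bins under 20% and 8 between 20% and 80%, and none was above 80%. They include main promoters of the hosts away from the annotated 5′ end, among them the least methylated intragenic bins of Gnas (3.04%) and Grb10 (3.94%). Across all 442 bins, 282 were between 20% and 80% (63.8%, against 70% of all bins in the genome), so an intermediate share was common throughout the genome. Among CpG-rich intragenic bins it was less common: 8 of 20 were intermediate in the 6 genes (40%), against 20.7% of 4936 intragenic bins with at least 40 CpGs in all protein-coding genes. These are counts without a test, and the class of at least 40 CpGs was chosen after its values were seen. Of the 8 intermediate bins 4 lay between 20% and 25%, and with bins shifted by 500 bp 3 of 18 were intermediate.

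The 8 intermediate CpG-rich bins were spread over 5 of the 6 genes. Igf2r had 1, at 22.1% of 2215 observations (20.4 to 23.9), beside the Airn start. Inpp5f had 1, at 22.1% of 1239 observations (19.8 to 24.5), over the start of transcript Inpp5f-005 at position 135831060 of chromosome 7. Grb10 had 2 adjoining ones, at 29.3% (27.1 to 31.6) and 24.8% (23.5 to 26.1), over the starts of Grb10-001 and Grb10-002 12.4 kb and 12.0 kb inside the gene. Trappc9 had 2, at 69.1% (66.8 to 71.4) in an intron 251.1 kb from the 5′ end and at 63.8% (61.4 to 66.3) over an exon 3.13 kb from it. Gnas had 2 of its 10 CpG-rich bins, 23.2% (20.5 to 26.2) over the Gnasxl start and 31.9% (27.2 to 36.8) just before exon 1A. H13 had none: its bin over the Mcts2 start stood at 13.2% (11.6 to 14.8), above the H13 promoter by 8.09 percentage points, which is under the 20 points asked of a call. Single CpGs within the bins were spread widely around these shares. The 30 CpGs covered at least 10 times at the Airn start, in the bin of 24.2%, ran from 10.5% to 53.3% with a median of 23.5%, while the 107 such CpGs of the main Igf2r promoter bin had a median of 3.03%.

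Gnas is the most crowded of the 6 hosts. Nespas, the antisense RNA that runs back through Nesp, starts in the bin at 10.7% of 732 observations in WG-BisSeq, 8.33% of 60 in replicate 1 and 19.1% of 110 in replicate 2. The bin over the Gnasxl start stood at 23.2%, 26.4% and 27.9%, and the libraries overlapped there. The following bin, over the long first exon of Gnasxl, which encodes most of the extra-large protein's own part, stood at 8.45% of 2830 observations (7.45 to 9.53), against 64.7% of 34 (46.5 to 80.3) and 43.7% of 103 (33.9 to 53.8), so both ChIP-BisSeq replicates lay above WG-BisSeq without overlap. The bins over the exon 1A start stood at 11.5% and 7.96% in WG-BisSeq, and those over the start of the transcript for the G protein subunit itself further into the gene at 3.17% and 3.04%. ChIP-BisSeq gave the latter 1.00% and 0% in replicate 1 (95% intervals to 5.45 and 4.20) and 6.96% and 2.11% in replicate 2, so the main Gnas promoter held the least methylated of the tested Gnas bins in WG-BisSeq and was at 7% or lower in all 3 libraries.

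**Figure D2:**
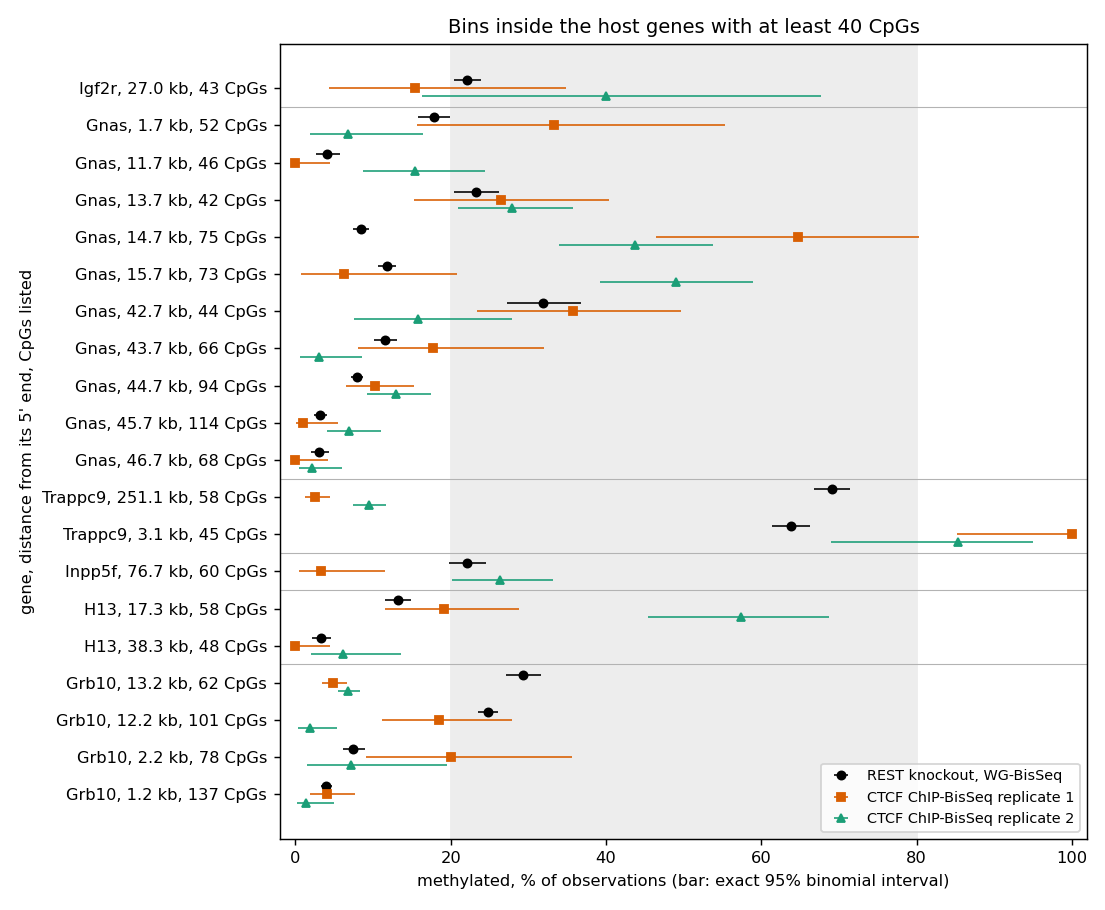
Share of methylated observations (horizontal axis, percent) in the 20 intragenic bins with at least 40 CpGs, in rows named by gene, distance from the 5′ end and number of CpGs, for REST knockout WG-BisSeq (circles) and CTCF ChIP-BisSeq replicates 1 (squares) and 2 (triangles), with exact 95% binomial intervals as bars and shading from 20% to 80%. WG-BisSeq stands far to the right of ChIP-BisSeq in the Trappc9 bin at 251.1 kb and far to the left in the Gnas bin at 14.7 kb.

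In ChIP-BisSeq, the same contrast with the own promoter could be made for 65 intragenic bins covered in both replicates, none of them in Grb10, whose promoter held 5 observations in replicate 1. Of these, 36 were higher than the promoter in both replicates (against 69.4% of all bins tested) and 0 were lower. Trappc9 gave 15 of 19, H13 10 of 17, Gnas 5 of 18, Igf2r 3 of 4 and Inpp5f 3 of 7. The count fell with the coverage asked for, to 11 of 35 bins at 20 observations and 6 of 27 at 30, and it was 55 of 78 with replicate 1 alone and 193 of 227 with replicate 2 alone. A bin enters this contrast with at least 10 observations in each replicate, whether or not its coverage was enriched for CTCF.

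The second comparison set ChIP-BisSeq against WG-BisSeq, bin by bin. Of the 87 bins tested, 65 were not enriched for CTCF, and the libraries also differed in genotype and strain. The CpG island in the Trappc9 intron and a bin of few CpGs past the short-transcript island of Inpp5f were less methylated in ChIP-BisSeq. They alone among the called bins differed by more than 40 percentage points in both replicates. In the Inpp5f bin no CpG had more than 7 observations in WG-BisSeq, so the assays could not be compared CpG by CpG there. The internal CpG island of Grb10, the best covered of the called bins, was also less methylated, by a smaller difference. The bin over the first exon of Gnasxl was more methylated, on few reads in ChIP-BisSeq and without CTCF enrichment. Of 87 bins covered in all 3 libraries, 6 were lower in both ChIP-BisSeq replicates (6.90%, against 5.08% of all bins tested) and 7 were higher in both (8.05%, against 4.95%), by two-sided Fisher's exact tests adjusted over 114872 bins. With replicate 1 alone 9 of 100 bins were lower and 17 higher, and with replicate 2 alone 11 and 28 of 251. The counts of bins called in both replicates were thus near those of the genome. No genome share was computed for 1 replicate alone, so those counts cannot be set beside the genome. A difference at least as large in both replicates occurred in 70 other bins of the genome for the Trappc9 island, in 546 for the Inpp5f bin and in 702 to 7002 for each of the other 11 called bins.

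The Trappc9 bin at chromosome 15, 72640001 to 72641000, holds 58 CpGs within an intron and overlaps no annotated exon of vM1, which does not name Peg13. It was methylated at 69.1% of 1598 observations in WG-BisSeq (66.8 to 71.4), 2.52% of 436 in replicate 1 (1.27 to 4.47) and 9.43% of 785 in replicate 2 (7.47 to 11.7). The differences from WG-BisSeq were −66.6 and −59.7 percentage points (Fisher's exact test, adjusted p = 4.5e-154 and 9.3e-180), and 70 other bins of the genome differed by as much in both replicates. All 33 CpGs covered at least 10 times in both assays were lower in ChIP-BisSeq, with medians of 72.2% and 2.38%. The neighbouring bin to the right stood at 74.8%, 40% and 33.3% and was also called lower, by 34.8 and 41.5 percentage points. The neighbour to the left stood at 64.1% in WG-BisSeq, 48.0% in replicate 1 and 13.1% in replicate 2. It was not called, since replicate 1 fell short of 20 points, and the replicates themselves differed there (adjusted p = 6.0e-06, Fisher's exact test).

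The Grb10 bin at chromosome 11, 11925001 to 11926000, holds 62 CpGs beside the starts of Grb10-001 and Grb10-002. Its share was 29.3% of 1605 observations in WG-BisSeq (27.1 to 31.6), 4.89% of 777 in replicate 1 (3.48 to 6.65) and 6.80% of 1352 in replicate 2 (5.52 to 8.28), again with no overlap between assays. The differences were −24.4 and −22.5 percentage points (Fisher's exact test, adjusted p = 4.4e-47 and 1.6e-55). Of 39 CpGs covered in both assays, 37 were lower in ChIP-BisSeq and 2 were higher. The next bin, with 101 CpGs, stood at 24.8%, 18.5% and 1.88% and was lower in replicate 2 but not in replicate 1. Differences as large as that of the first bin occurred in 5244 other bins of the genome, so its size was not rare.

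**Figure D3:**
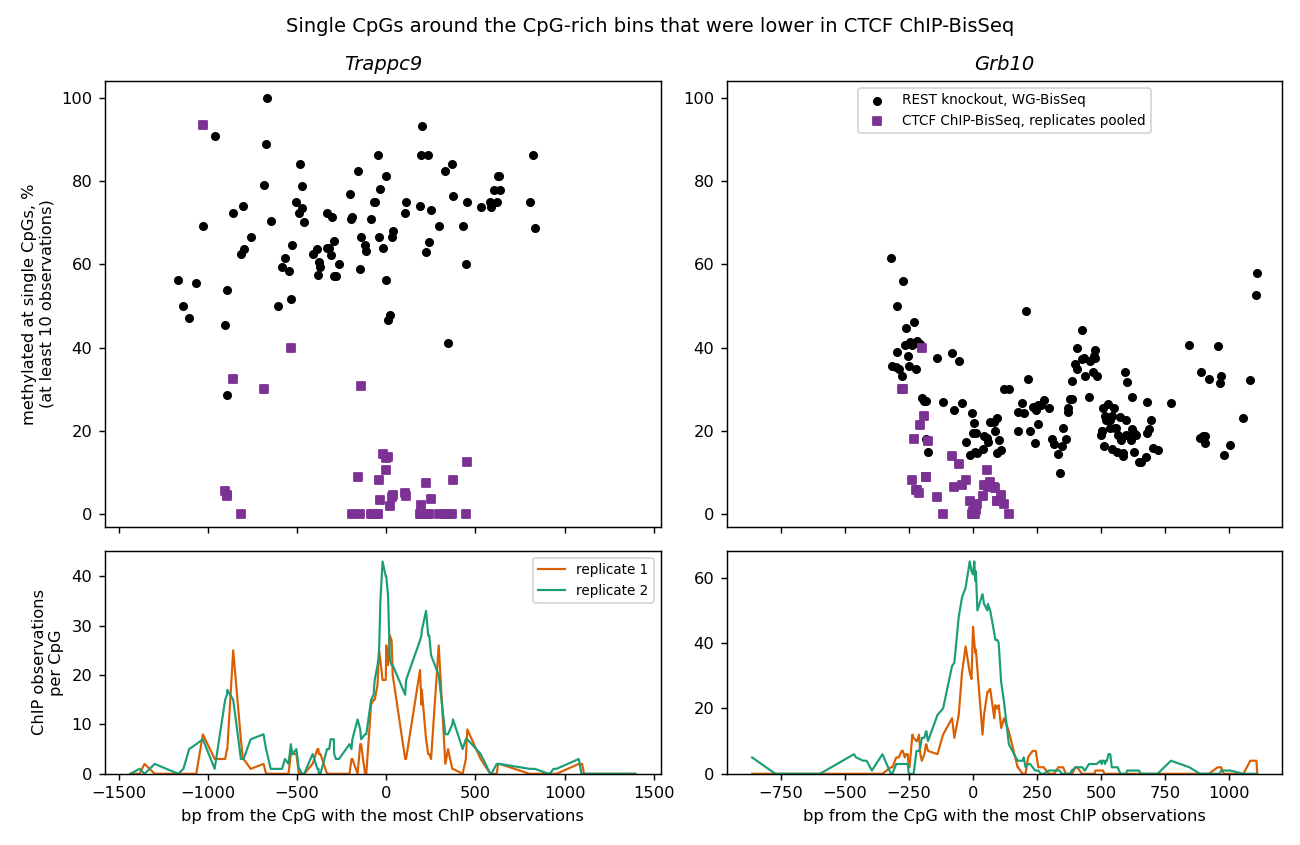
Upper panels give the methylated share of single CpGs with at least 10 observations (vertical axis, percent) in REST knockout WG-BisSeq (circles) and in the pooled CTCF ChIP-BisSeq replicates (squares) around the Trappc9 and Grb10 islands, and lower panels the ChIP-BisSeq observations per CpG in each replicate, by distance in bp from the best covered CpG. Squares lie under 31% within the Trappc9 bin of 58 CpGs, where circles lie between 41.2% and 93.1%, and the coverage of both replicates peaks over the same CpGs.

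The other bins called lower were smaller in CpG number. In Inpp5f, the bin at chromosome 7, 135833001 to 135834000, 1 bin past the CpG island of the short transcript, stood at 82.1% of 39 observations in WG-BisSeq (66.5 to 92.5), 37.3% of 220 in replicate 1 and 31.6% of 196 in replicate 2. Both replicates were below the whole WG-BisSeq interval, by 44.8 and 50.4 percentage points (Fisher's exact test, adjusted p = 5.1e-06 and 1.3e-07). No CpG of the bin had more than 7 observations in WG-BisSeq, while the best covered held 59 and 55 in replicates 1 and 2. Whether the assays drew on the same CpGs was not tested. In H13, the bin just upstream of the 5′ end stood at 56.2%, on only 16 observations, and at 10.5% and 17.2% in ChIP-BisSeq. In Trappc9, an intronic bin 16.1 kb from the 5′ end stood at 43.2% of 37 observations, 23.0% of 178 and 18.6% of 312. The intervals of WG-BisSeq and replicate 1 overlapped at this last bin, and its adjusted p of 0.044 for replicate 1 (Fisher's exact test) was just under the threshold.

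Of the 7 bins called higher, only the Gnasxl exon bin and the Trappc9 bin 3.13 kb from the 5′ end had at least 40 CpGs. The Gnasxl bin differed by +56.3 and +35.2 percentage points (Fisher's exact test, adjusted p = 9.0e-14 and 2.3e-18), with 702 other bins as large. It rests on few reads: no CpG of the bin had more than 5 observations in replicate 1 or 7 in replicate 2, and 15 of the 22 methylated observations of replicate 1 fell on 3 adjacent CpGs with 5 each. Its neighbour, 1 bin further into the exon, did not follow: it stood at 11.8% in WG-BisSeq, 6.25% in replicate 1 and 49.1% in replicate 2, and the replicates differed. The Trappc9 bin stood at 63.8%, 100% of 23 observations and 85.3% of 34, and with replicate 2 alone it was not called. The other 5 were bins of 10 to 20 CpGs in Igf2r, Gnas, Inpp5f, H13 and Grb10, with mean differences between 27.3 and 42.1 percentage points and 11 to 94 ChIP-BisSeq observations a replicate.

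**Figure D4:**
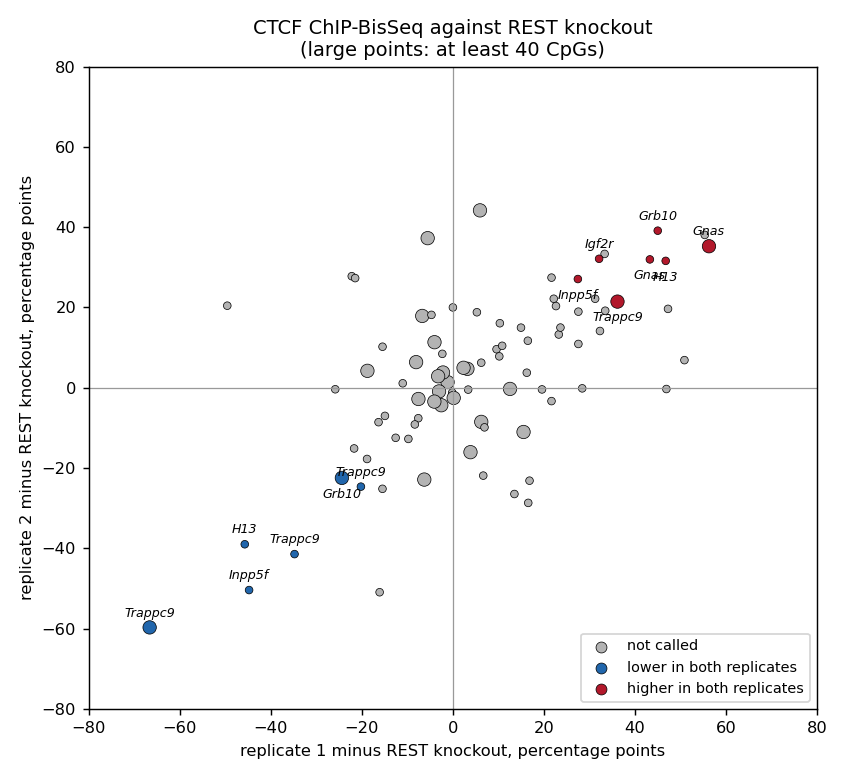
Difference in methylated share between CTCF ChIP-BisSeq and REST knockout WG-BisSeq in percentage points, for replicate 1 (horizontal axis) and replicate 2 (vertical axis), in the 87 host gene bins covered in all 3 libraries, with called bins coloured and named and large points for bins of at least 40 CpGs. The Trappc9 island stands apart at −66.6 and −59.7, and the called higher bins reach 56.3 and 39.1.

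The nested starts of Airn, Mcts2 and Inpp5f gave no call against WG-BisSeq, and here the replicates limited what could be seen. The Airn start bin itself had 0 observations in replicate 1 and 19 in replicate 2, and the bin beside it stood at 22.1%, 15.4% of 26 and 40% of 15, with intervals that overlapped across all 3 libraries. The Mcts2 bin stood at 13.2%, 19.1% of 89 (11.5 to 28.8) and 57.3% of 75 (45.4 to 68.7), so replicate 2 lay above both other libraries. The next H13 bin stood at 21.5%, 0% of 23 (95% interval to 14.8) and 48.8% of 41. At the start of Inpp5f-005, the order was 22.1%, 3.33% of 60 (0.406 to 11.5) and 26.3% of 190 (20.2 to 33.2). Between the ChIP-BisSeq replicates, the difference passed the test in both Mcts2 bins and in the Inpp5f-005 bin (Fisher's exact test, adjusted p = 4.4e-05, 0.00048 and 0.00096). Over all 87 bins, 11 differed between replicates (12.6%, against 10.6% of all bins tested), with 5 higher in replicate 2 and 6 in replicate 1, and 4 of the 11 were in H13.

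The third comparison asked where CTCF-bound DNA was concentrated in the 6 genes. Coverage was expressed as ChIP-BisSeq observations per genomic CpG of a bin, divided by the median over all CpG-dense bins of the genome. H13 carried the most enriched bins, Igf2r none, and the single most covered bin was in a Trappc9 intron. Of 442 bins, 22 reached at least 4 times the median in both replicates (4.98%, against 4.97% of all bins), 7 in H13, 6 in Gnas, 5 in Trappc9, 2 in Inpp5f and 2 in Grb10. Replicate 1 alone gave 56 bins and replicate 2 alone 24. The Airn start in Igf2r stood at 0 and 0.435 times the median, and Igf2r was the only gene of the 6 without an enriched bin.

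The most covered bin of all, 38.1 kb inside Trappc9, reached 122 and 46.7 times the median and stood at 29.3% in WG-BisSeq, 19.5% in replicate 1 and 16.5% in replicate 2, with 13 CpGs. H13 had 3 bins above 60 times in replicate 1: its promoter (72.0 and 24.8 times), and intronic bins 24.3 kb (68.5 and 37.5 times) and 27.3 kb (66.6 and 31.2 times) inside. As bin shares these were low in all 3 libraries, with the promoter at 4.77%, 0.694% and 1.31% and the intronic bins between 10.4% and 19.6%. Single CpGs covered at least 10 times in both assays varied more. In pooled ChIP-BisSeq they reached 61.5% in the first intronic bin (5 CpGs, median 50%) and 76.2% in the second (9 CpGs, median 14.3%). Their WG-BisSeq medians were 12.5% and 8.33%. The Trappc9 island reached 30.1 and 18.6 times and the Grb10 island 50.1 and 30.0 times. The Gnas promoter bin that holds the Nesp start reached 27.5 and 19.6 times at 20.0%, 7.46% and 7.55% methylation. In Gnas, an intronic bin of 10 CpGs 26.7 kb inside the gene reached 64.8 and 18.4 times, at 21.3%, 4.94% and 12.7%. In Grb10, an intronic bin 63.2 kb inside reached 69.1 and 25.9 times, at 27.3% of 22 observations, 34.2% and 17.4%, and the Inpp5f bin that was lower in ChIP-BisSeq reached 62.9 and 19.2 times. The Igf2r bin called higher in ChIP-BisSeq, over an exon 51.0 kb inside, reached 5.43 and 1.57 times and was fully methylated in both replicates. The internal starts of Mcts2, exon 1A and Inpp5f-005 did not reach 4 times in both replicates, whereas the bin at the Nespas start in Gnas did.

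**Figure D5:**
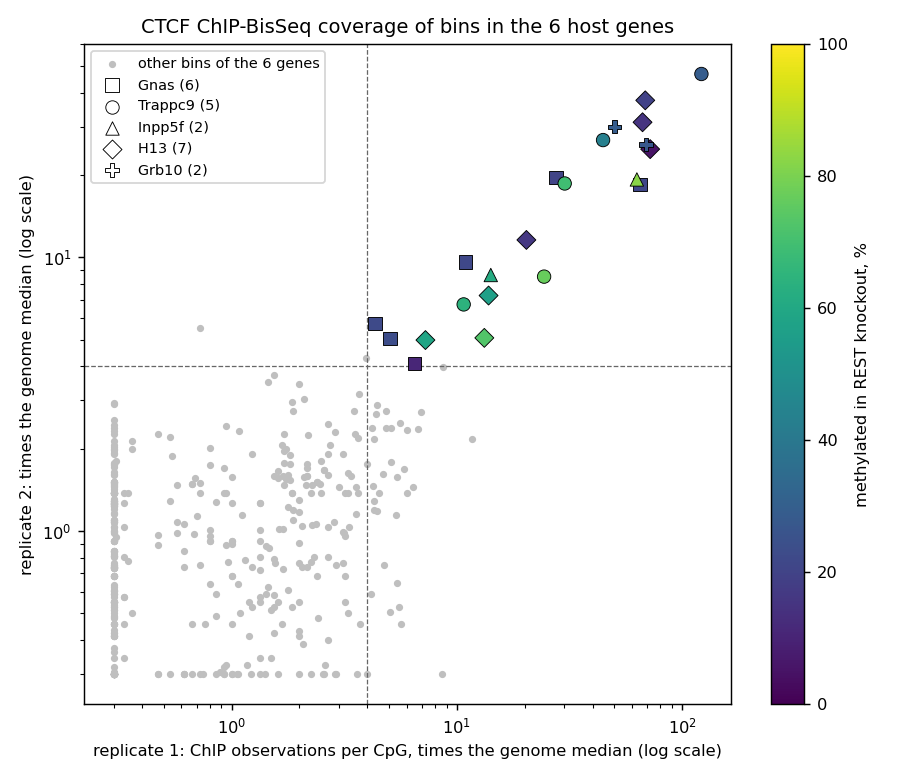
CTCF ChIP-BisSeq observations per CpG, as a multiple of the median over all CpG-dense bins of the genome, for replicate 1 (horizontal axis) and replicate 2 (vertical axis), both on log scales, in the 442 host gene bins, where values below 0.3 are drawn at 0.3, dashed lines mark 4 times the median, marker shape gives the gene and colour the WG-BisSeq methylation of the 22 enriched bins. The Trappc9 bin at 122 and 46.7 times stands at the top right, and no Igf2r bin is among the 22.

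The bins called lower were mostly enriched ones. Of the 22 enriched bins, 5 were lower in ChIP-BisSeq and 1 was higher, and of the 65 tested bins that were not enriched, 1 was lower and 6 were higher. Over all tested bins of the genome the same split was 17.3% lower and 2.44% higher among enriched bins and 0.856% and 5.82% among the others, and the order was the same.

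The CTCF consensus, a pattern of 13 positions searched on both strands, was matched exactly in 13 of the 442 bins (2.94%, against 3.68% of all CpG-dense bins) and in 5 of the 22 enriched bins (22.7%, against 29.7% of enriched bins in the genome). With 1 mismatch allowed, 12 of the 22 enriched bins held a match (54.5%, against 61.6%). The 5 exact matches in enriched bins are shown with the match in capitals, on the strand that carries it and 8 bases on either side, because each lies 5 to 37 bp from the best covered CpG of its bin.
Inpp5f, chr7:135810511-135810539 (+): ggatctgaCGCCCTCTTCTGGccttcgca
Inpp5f, chr7:135833873-135833901 (+): gaggactgCGCCCCCTTCTGGtcatgtct
H13, chr2:152495118-152495146 (-): cgcccgatCGCCCTCTGGTGGcggtgagg
H13, chr2:152497490-152497518 (-): cttacgaaTGCCCTCTCCTGGctggaact
H13, chr2:152522674-152522702 (-): ggcaagccCGCCACCTGGTGGccgcaggg

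The first Inpp5f match is in a bin that was higher in ChIP-BisSeq, and the CpG in the match was methylated at 72.7% of 11 observations in replicate 1 and 83.3% of 24 in replicate 2. The second Inpp5f match is in the bin that was lower. Its CpG was methylated at 1.75% of 57 observations and 21.8% of 55, and lay 6 bp from the best covered CpG of the bin, so a gene with 2 enriched exact matches showed bound DNA that was highly methylated at the first and mostly unmethylated at the second. WG-BisSeq held only 5 observations of the first CpG, at 100%, and 1 of the second, at 0%, too few for a comparison of the assays at these CpGs. The H13 promoter match held a CpG that was unmethylated in all observations, 22 in WG-BisSeq, 46 in replicate 1 and 53 in replicate 2, which allows up to 13.6%, 6.52% and 5.66%. The last H13 match held a CpG at 8.33% of 12 observations in WG-BisSeq, 0% of 95 (allowing up to 3.16%) and 3.96% of 101. The other H13 match holds no CpG.

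The Trappc9 island held 2 matches with 1 mismatch, near the 2 main coverage peaks of the island, and an intronic bin of H13 that was among the most covered held another. These lay 6, 290 and 9 bp from the best covered CpG of their bins and are shown in the same way. Matches with 1 mismatch in other enriched bins of Gnas, Trappc9 and H13, at 15 to 743 bp, are not shown.
Trappc9, chr15:72640508-72640536 (+): ttctgcggCGCCCTCTACCGGgtaggaac
Trappc9, chr15:72640792-72640820 (+): ttctgtggTGCCATCTAGCGGgtaagaat
H13, chr2:152519152-152519180 (-): gggcttagCGCCCCCTGGTGAccgacacc

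In the first Trappc9 match, the 2 CpGs were methylated at 51.6% of 62 observations in WG-BisSeq, 0% of 48 in replicate 1 (allowing up to 6.25%) and 19.7% of 76 in replicate 2. In the second, the CpG was methylated at 69.2% of 26 observations in WG-BisSeq and at 0% of 26 and 0% of 20 in ChIP-BisSeq, which allows up to 11.5% and 15%. The H13 match held a CpG methylated at 4.35% of 69 and 2.67% of 75 observations in ChIP-BisSeq and at 16.7% of 6 in WG-BisSeq. The Grb10 island held no match even with 1 mismatch, which says only that these letters are not in that bin.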

How the data were processed

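The authors deposited, for each library, a table of CpGs with whole-number counts of all observations and of methylated observations per CpG, with no further normalization. Alignment used Bowtie 0.10.0.1 and the mm9 genome per the labels. Removal of PCR duplicates is not given in the sources used here. Counts were summed in 1000 bp bins of mm9, annotated with GENCODE vM1, and only bins with at least 10 CpGs listed, and at least 10 observations in the libraries compared, were tested. Two-sided Fisher's exact tests were adjusted by Benjamini-Hochberg over all bins of the genome, and a call needed an adjusted p under 0.05 and 20 percentage points, for ChIP-BisSeq in both replicates in the same direction. The test was checked on simulated independent counts. These lack the dependence of CpGs on shared reads, so the check gives no error rate for these data. Reads covered the CpGs listed 6 times in WG-BisSeq and 3 and 2 times in ChIP-BisSeq replicates 1 and 2 at the median, so bins of few CpGs are imprecise. Intervals are exact (Clopper-Pearson). The host genes and the lists were chosen with earlier results of these data known. Bins were named by rule: promoters, starts of nested transcripts, the bin richest in CpGs, the bin most covered by CTCF and every bin called against WG-BisSeq, with neighbours added after their values were seen. Alternatives varied the observation and CpG minimum, the grid, the promoter, the threshold, coverage limits and the replicates. Python 3.11.15, NumPy 2.4.6, pandas 2.3.3, SciPy 1.17.1, numba 0.67.0 and matplotlib 3.10.9 were used.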

Additional observations from a re-analysis of the deposited data

Results flagged for a closer look

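In 3 Gnas bins the difference from the own promoter had one sign in REST knockout WG-BisSeq and the other in both ChIP-BisSeq replicates. The difference between the libraries in this contrast was not tested. In the bin starting at 174122001, before the Gnasxl start, it was 12.2 percentage points in WG-BisSeq and −5.41 and −0.706 in replicates 1 and 2. In the bin starting at 174124001, over the Gnasxl exon, it was −1.08 against 59.3 and 36.4. In the bin starting at 174154001, over exon 1A, it was −1.57 against 4.89 and 5.65.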

How the results depend on the processing

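No paired analysis was possible because replicate numbers occur in the ChIP-BisSeq group only and the WG-BisSeq group has a single library. None of the 13 bins called against WG-BisSeq changed the direction of that difference where an alternative gave a value, and no other single bin was recomputed in that contrast. Against the own promoter in WG-BisSeq, directions turned with the promoter: at the start of the longest coding sequence 8 of 34 Gnas bins, among them those of the Nespas and exon 1A starts (1.13 and 2.02 to −12.2 and −11.4 percentage points), and 5 of 26 Grb10 bins, with both island bins (−16.7 and −21.2 to 24.2 and 19.7), and with a promoter of 1 kb 6 of 27 Grb10 bins. Of 60 recomputed counts of the 6 genes 31 stayed within 1.5 times. The others follow, and where a setting leaves fewer bins to test it lowers the count by construction. With at least 20 CpGs per bin, 40 bins were higher than the promoter in WG-BisSeq (of 66 tested) and 11 in ChIP-BisSeq (of 32), 3 were lower and 3 higher in ChIP-BisSeq than in WG-BisSeq (of 43), 36 were intermediate and 8 enriched for CTCF (of 74). With 40 percentage points, 1 bin was lower than the promoter in WG-BisSeq, 2 were lower and 0 higher in ChIP-BisSeq than in WG-BisSeq by Fisher's exact test, and 6 differed between replicates. With 20 and 30 observations, 11 and 6 bins were higher than the promoter in ChIP-BisSeq, 4 and 2 were higher in ChIP-BisSeq than in WG-BisSeq, and 7 and 5 differed between replicates. The count of bins lower than the promoter in WG-BisSeq was 0 with shifted bins, with a promoter of 1 kb and with the start of the longest coding sequence, and 1 with CpGs covered at least 10 times. All 3 such bins are in Grb10, and its count of higher bins moved from 12 to 27, 25 and 26 under the 3 changes of grid and promoter. Between 30% and 70%, 112 bins were intermediate, 3 of them CpG-rich intragenic bins. With replicates pooled, 10 bins were lower and 53 higher than in WG-BisSeq (of 302). With either replicate left out, 55 to 193 bins were higher than the promoter, 9 to 11 were lower and 17 to 28 higher than in WG-BisSeq, and 24 to 56 were enriched for CTCF. Genome shares were not computed for pooled or single replicates. The Trappc9 and Inpp5f bins starting at 72640001 and 135833001 were called under every alternative that kept them, while the other 11 called bins were lost at 40 points and the Trappc9 bin starting at 72888001 also without replicate 1, at 21.5 points. Named bins were not recomputed on the shifted grid, and no alternative limited them to CpGs covered in both assays. Bins that fell under an observation minimum have no value there. Depth limits the Airn and Grb10 promoter bins in ChIP-BisSeq.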

Other observations

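In 4 other imprinted host genes, the WG-BisSeq values of CpG-rich bins inside the gene ran from low to intermediate, and the ChIP-BisSeq replicates differed at some of them. Blcap, with no promoter bin here and a median of 23.4% over its tested intragenic bins, holds the start of the paternally expressed gene Nnat. The 3 bins there stood at 34.6%, 25.9% and 20.8% in WG-BisSeq, at 47.9%, 15.4% and 19.05% in replicate 1 and at 58.9%, 61.5% and 61.9% in replicate 2, and the replicates differed in the second (Fisher's exact test, adjusted p = 3.5e-05). The Kcnq1 bin of 70 CpGs 188.3 kb inside the gene, with no annotated start within 500 bp, stood at 19.3%, 15.9% and 23.1%. The Herc3 bins over the start of Nap1l5 stood at 16.1% and 26.9% in WG-BisSeq, 83.3% and 76.5% in replicate 1, and 59.5% and 95.8% in replicate 2. Both were called higher in ChIP-BisSeq, on 12 and 17 observations in replicate 1 and 42 and 24 in replicate 2, and neither was enriched for CTCF. They were the only 2 bins called against WG-BisSeq of 39 tested in these 4 genes (5.13%, against 4.95% of all bins called higher). The Commd1 bins over the start of Zrsr1 stood at 9.38% and 9.24% in WG-BisSeq, 16.4% and 4.55% in replicate 1, and 28.6% and 65.8% in replicate 2, and the replicates differed in the second (Fisher's exact test, adjusted p = 0.00010).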
